A study of Mus musculus with 10 samples.

Results

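A set of 10 genes of the lung capillary endothelium was followed in the lungs of mice with and without Bpifb1, which encodes a secreted airway protein. The members were chosen by symbol as markers of the 2 capillary cell types of the alveolus: Car4, Ednrb, Apln, Fibin and Tbx2 for the aerocyte, and Aplnr, Gpihbp1, Plvap, Kit and Cd93 for the general capillary cell. All 10 of the 10 symbols were found among the 47333 genes of the deposited table, each as 1 protein-coding gene, and all 10 were among the 18024 genes abundant enough to test. The lowest count of any member in any mouse was 879, so no member entered the test through 1 group alone.

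The right middle lung lobe of 10 C57BL/6J mice aged 12 weeks was sequenced, from 5 Bpifb1 knockout mice (KO) and 5 wild-type mice (WT). All mice were naïve and untreated, and cages held both genotypes. Of the KO mice 1 was labelled male and 4 female, and of the WT mice 2 were labelled male and 3 female. The labels say neither how the allele was made nor in which cells Bpifb1 was lost.

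Alveolar capillaries are lined by a pair of endothelial cell types. Aerocytes are large, thin cells specialised for gas exchange that span the air-facing capillary wall. General capillary cells regulate vessel tone, present lipoprotein lipase to the blood and serve as progenitors of the capillary bed. The apelin peptide made by aerocytes and its receptor Aplnr on general capillary cells form a ligand and receptor pair split between the 2 types. Several of these markers are also transcribed elsewhere. Examples are Tbx2 in lung mesenchyme, Ednrb in melanocytes, Kit in mast cells and melanocytes, and Plvap in larger veins. The examples are not a complete list.

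Promoter sequences are shown for 3 members on which the comparisons among the genes turn: Apln and Car4, whose levels varied in opposite directions across mice, and Kit, which belonged to the most alike pair. Each runs 5′ to 3′ on the strand of the gene, from 250 bases before to 50 bases after the RefSeq start. Capitals mark the letters AGGAAG or CTTCCT. RefSeq windows on GRCm38.p6 were matched for 5 of the 10 members (Apln, Car4, Ednrb, Fibin and Kit), with 2 starts for Kit, of which the first is printed. Apln lies at chrX:48034804-48035103 on the minus strand, Car4 at chr11:84957504-84957803 on the plus strand and Kit at chr5:75574737-75575036 on the plus strand.
Apln promoter: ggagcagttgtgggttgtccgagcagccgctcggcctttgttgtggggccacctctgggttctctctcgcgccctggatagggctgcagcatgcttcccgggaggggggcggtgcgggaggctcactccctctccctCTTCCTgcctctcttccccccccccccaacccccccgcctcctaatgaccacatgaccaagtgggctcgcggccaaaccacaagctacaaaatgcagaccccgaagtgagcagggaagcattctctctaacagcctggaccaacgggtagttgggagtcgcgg
Car4 promoter: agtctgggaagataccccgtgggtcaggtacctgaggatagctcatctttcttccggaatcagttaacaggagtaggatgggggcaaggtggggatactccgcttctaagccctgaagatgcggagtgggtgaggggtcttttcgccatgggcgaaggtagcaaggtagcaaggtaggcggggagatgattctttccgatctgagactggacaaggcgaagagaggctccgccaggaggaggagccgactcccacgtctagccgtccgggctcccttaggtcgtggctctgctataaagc
Kit promoter: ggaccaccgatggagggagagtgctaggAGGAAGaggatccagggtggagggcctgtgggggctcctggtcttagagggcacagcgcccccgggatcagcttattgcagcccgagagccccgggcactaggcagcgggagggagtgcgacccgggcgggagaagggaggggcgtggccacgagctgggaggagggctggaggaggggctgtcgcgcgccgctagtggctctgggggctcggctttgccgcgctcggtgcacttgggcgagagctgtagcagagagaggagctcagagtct
The 3 motifs named here were searched on both strands of each window. The ETS letters, AGGAAG or CTTCCT, are among the sequences bound by the ETS factors that many endothelial genes use. They were present in 35.4% of 32851 RefSeq promoters of 300 bases. They were found once in the Apln window, once in each of the overlapping Kit windows, and not in those of Car4, Ednrb or Fibin. Other sequences with GGAA or TTCC that ETS factors may bind were not counted, and the Car4 and Apln windows hold some in small letters. The GATA letters AGATAA or TTATCT, in 11.2% of all promoters, and the T-box letters AGGTGT or ACACCT, in 13.7%, were in none of the 6 member windows. No match says only that these letters are absent from the window. The GC content was 64.0% in the Apln window, 57.3% in that of Car4 and 69.0% in that of Kit.

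Sequencing depth was 21357424 to 28321294 counts per mouse, and the groups overlapped in depth. Bpifb1 was measured at 28.1 to 79.5 CPM (reads assigned to the gene among 1e+06 of that library, after scaling) in WT and 0.217 to 1.26 CPM in the knockouts (log2 fold change -6.55, SE 0.55, adjusted p = 0.0275, edgeR quasi-likelihood test with Benjamini-Hochberg adjustment). KO replicate 5, labelled female, stood apart in its sex-linked RNA: Xist was at 1.78 CPM, against 273 to 407 CPM in the other females and 1.29 to 1.73 CPM in the males, and Y-linked genes had 0 counts. Its values are kept, and the members' KO minus WT differences are also given without it. It counts as a female in the sex comparison, in females alone and in the correlations over females. Endothelial RNA was plentiful in every mouse: 16 pan-endothelial genes summed to 4681 to 5726 CPM in WT and 5087 to 5375 CPM in KO mice. The 5 aerocyte genes summed to 759 to 878 CPM in WT and 746 to 852 CPM in KO mice, and the 5 general capillary genes to 1114 to 1409 CPM and 1124 to 1345 CPM. In a piece of whole lung, fewer capillary cells and less RNA per cell cannot be told apart.

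Plvap, a structural protein of the diaphragms of endothelial fenestrae and caveolae, had the highest level per length, at 268 ± 22.4 CPM per kilobase of exon (SD, n = 10 mice). Tbx2, a T-box transcription factor, followed at 121 ± 10.5 CPM per kilobase. The membrane carbonic anhydrase gene Car4, whose enzyme faces the capillary blood, was at 74.6 ± 5.37 CPM per kilobase. Cd93, an endothelial C-type lectin receptor, came next with 60.2 ± 8.88 CPM per kilobase, followed by Gpihbp1, the carrier of lipoprotein lipase, with 47.3 ± 4.65. The secreted factor gene Fibin was at 30.7 ± 3.45 CPM per kilobase and the endothelin receptor gene Ednrb at 21.3 ± 3.24. The lowest levels per length were those of the receptor kinase gene Kit, 15.7 ± 2.32, the apelin receptor gene Aplnr, 15.03 ± 1.90, and the apelin gene Apln, 14.9 ± 1.82 CPM per kilobase. Intervals of 1 SD overlapped between Cd93 and Gpihbp1, between Ednrb and Kit, and among Kit, Aplnr and Apln, while the other neighbours in this order were farther apart than their SDs. Exon length was the union of all annotated exons, so genes with many rare exons read low on this scale.

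**Figure D1:**
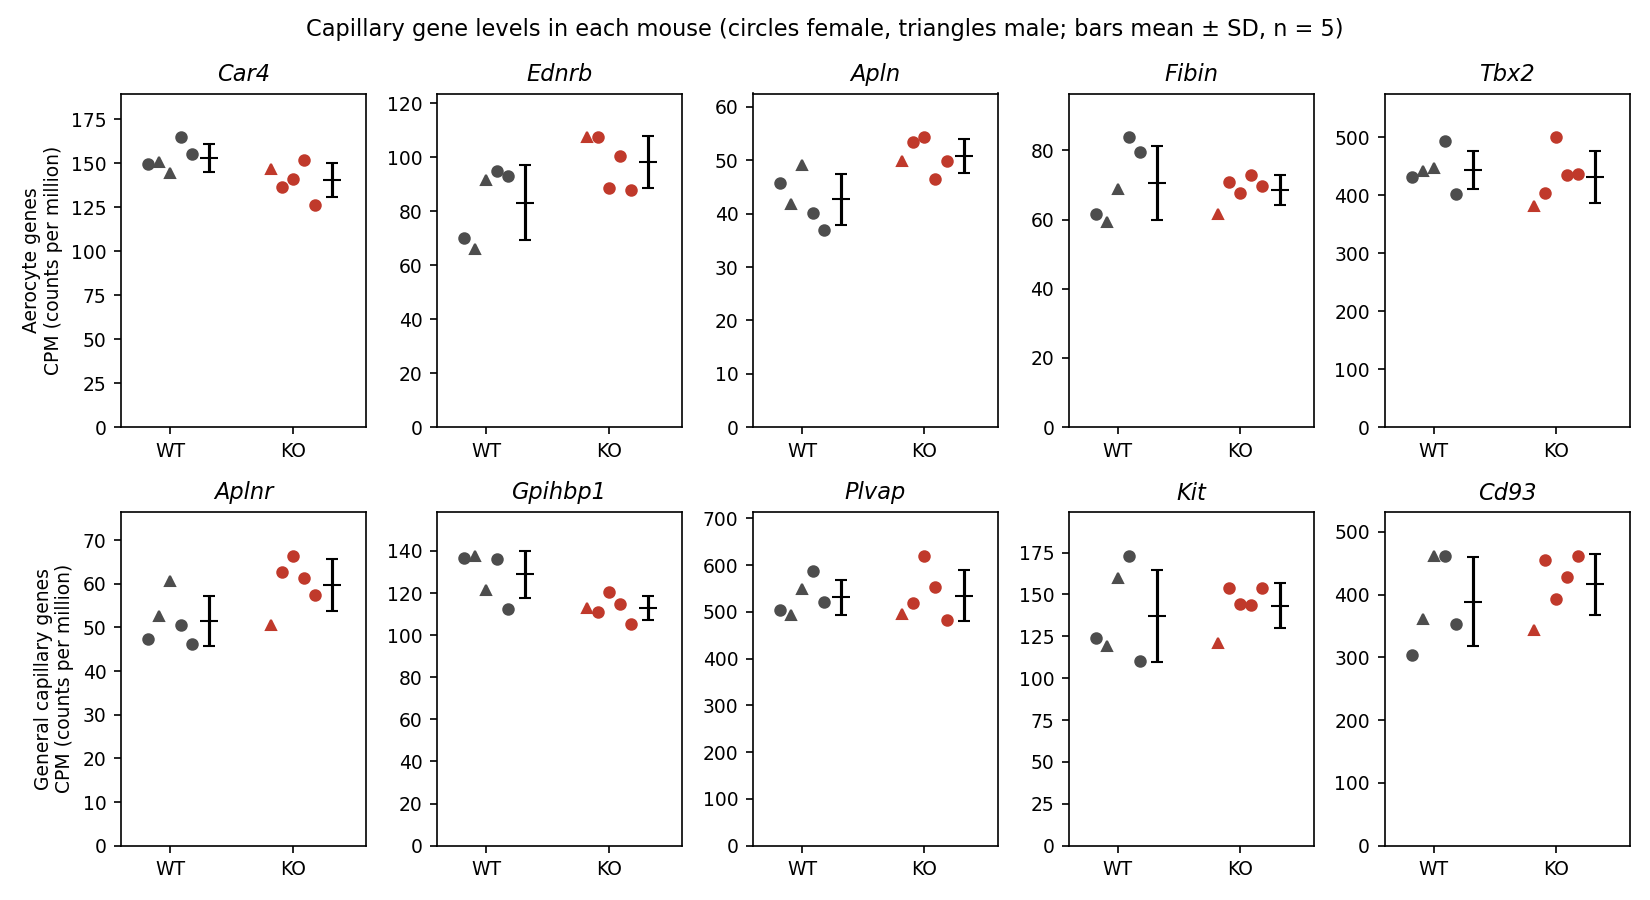
CPM of each member in each mouse, with circles for females, triangles for males and bars for the group mean ± SD (n = 5 WT and 5 KO). Apln and Aplnr have most KO mice in the upper part of the WT range or above it, Gpihbp1 and Car4 have most in the lower part or below it, and the groups overlap in all 10 panels.

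The first comparison, the one the study was designed for, asked which genes differ with the loss of Bpifb1. None of the 10 members passed at an adjusted p under 0.05 (edgeR quasi-likelihood test), where 0.0222% of all tested genes did (0.00555% higher and 0.0166% lower in KO mice). At an unadjusted p under 0.05, 3 of the 10 members stood out, Apln and Aplnr higher and Gpihbp1 lower in KO mice, against 17% of all tested genes (8.92% higher and 8.04% lower). DESeq2 and limma-voom each gave 0 adjusted calls and 4 unadjusted ones among the members. The KO and WT ranges overlapped for all 10 members, where they did not for 1.88% of all tested genes. Fitted differences were above 0 for 5 of the 10 members, against 49.3% of all genes.

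Apln encodes the apelin peptide and is on chromosome X (ENSMUSG00000037010, GRCm38 48025146 to 48034853, minus strand). Its levels were 49.9, 53.4, 54.4, 46.5 and 49.9 CPM in KO replicates 1 to 5 and 45.7, 41.8, 49.1, 40.1 and 36.9 CPM in WT replicates 1 to 5. All 5 KO mice lay above the WT median and 4 above the highest WT mouse, while KO replicate 4 fell inside the WT range. The group means were 50.8 ± 3.13 CPM in KO and 42.7 ± 4.76 CPM in WT (SD, n = 5 each), and the fitted log2 difference was 0.27 (SE 0.07, 95% interval 0.11 to 0.43). Its adjusted p of 0.145 by edgeR's quasi-likelihood test did not pass. Over the 19 alternative fits the difference ranged from 0.21 to 0.32, with adjusted p from 0.0534 (DESeq2) to 0.316. Without KO replicate 5 it was 0.27 (adjusted p = 0.261, edgeR).

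Aplnr, the receptor for apelin, is on chromosome 2 (ENSMUSG00000044338, GRCm38 85136225 to 85139923, plus strand). KO replicates 1 to 5 had 50.7, 62.6, 66.5, 61.3 and 57.4 CPM, and WT replicates 1 to 5 had 47.4, 52.7, 60.6, 50.5 and 46.2 CPM. Again all 5 KO mice were above the WT median, 3 of them above the highest WT mouse, and KO replicate 1, the male of the group, was the lowest KO mouse. The means were 59.7 ± 6.01 CPM in KO and 51.5 ± 5.70 CPM in WT, a fitted log2 difference of 0.22 (SE 0.09, 95% interval 0.03 to 0.41, adjusted p = 0.239, edgeR quasi-likelihood test). Leaving out KO replicate 1 moved it to 0.37, and so did comparing females alone (adjusted p = 0.103, edgeR). With no KO male left and sex as a term, both fits draw the genotype difference from the same females. They are therefore not separate checks. Without KO replicate 5 the difference was 0.23. The other apelin receptor ligand, Apela, was at a mean of 0.0165 CPM, below the level tested.

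Ednrb, the B-type endothelin receptor, is on chromosome 14 (ENSMUSG00000022122, GRCm38 103814625 to 103844402, minus strand). The KO mice had 107, 107, 88.5, 100.3 and 87.9 CPM in replicates 1 to 5, and the WT mice 70.1, 66.1, 91.4, 94.9 and 93.1 CPM. The KO mice above every WT mouse numbered 3, and the remaining pair lay between the lower and the upper WT values. WT replicates 1 and 2 were well below all other mice. The fitted log2 difference of 0.24 (SE 0.12, 95% interval -0.02 to 0.50) did not pass (adjusted p = 0.321, edgeR quasi-likelihood test). It ranged from 0.16 to 0.30 over the alternatives, with the lowest value in females alone, and was 0.28 without KO replicate 5.

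The ligands and the sister receptor of Ednrb gave no call either. Edn1, the endothelin made by general capillary and other endothelial cells, was at 34.7 ± 5.82 CPM in WT and 31.9 ± 4.65 CPM in KO mice (log2 difference -0.10, SE 0.13). Edn3, the ligand preferred by the B-type receptor relative to the A-type, was at 30.6 ± 3.79 and 27.8 ± 1.17 CPM (-0.16, SE 0.07). Ednra, the A-type receptor gene, was at 70.4 ± 8.11 and 73.8 ± 3.87 CPM (0.08, SE 0.07). With 1 mouse left out in turn, these differences ran from -0.20 (without WT replicate 5) to -0.02 (without WT replicate 4) for Edn1, from -0.21 (without WT replicate 4) to -0.07 (without WT replicate 5) for Edn3 and from 0.02 (without WT replicate 2) to 0.12 (without WT replicate 3) for Ednra. Of the 7 further genes listed for apelin and endothelin signalling, 5 were tested, 0 passed the adjusted or the unadjusted threshold, and their median log2 difference was 0.08, beside -0.0027 for all genes tested.

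Car4 is on chromosome 11 (ENSMUSG00000000805, GRCm38 84957786 to 84966044, plus strand). KO replicates 1 to 5 had 147, 136, 141, 152 and 126 CPM, and WT replicates 1 to 5 had 149.7, 150.4, 144, 165 and 155 CPM. Of the KO mice 3 were below the lowest WT mouse, and KO replicate 4 lay above the WT median. The means were 141 ± 9.74 CPM in KO and 153 ± 7.77 CPM in WT, a fitted log2 difference of -0.13 (SE 0.06, 95% interval -0.25 to 0.00, adjusted p = 0.301, edgeR quasi-likelihood test). Without KO replicate 5, the lowest mouse, the difference was -0.09. Of the 15 other carbonic anhydrase genes listed, 11 were tested and 0 passed, and 1, the cytosolic enzyme gene Car13, had an unadjusted p under 0.05 (log2 difference 0.28, adjusted p = 0.268, edgeR).

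Gpihbp1, which carries lipoprotein lipase across the capillary endothelium to its surface, is on chromosome 15 (ENSMUSG00000022579, GRCm38 75596628 to 75599481, plus strand). Its levels were 113, 110.9, 120.5, 114.6 and 105.4 CPM in KO replicates 1 to 5, and 136.4, 137.8, 121.5, 136.1 and 112.4 CPM in the WT replicates. All 5 KO mice were below the WT median and 2 were below the lowest WT mouse. Only WT replicate 5 lay within the KO range, and WT replicate 3 was just above its upper end. The means of 113 ± 5.52 CPM in KO and 129 ± 11.3 CPM in WT differed by -0.19 in log2 units (SE 0.07, 95% interval -0.33 to -0.05), with an adjusted p of 0.202 by edgeR's quasi-likelihood test. Without KO replicate 5 the difference was -0.17 (adjusted p = 0.345, edgeR).

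Lpl, the lipase that Gpihbp1 carries, was at 156 ± 26.6 CPM in WT and 159 ± 21.7 CPM in KO mice (log2 difference 0.02, SE 0.13), and this difference was -0.12 in females alone. Of the 7 genes listed for handling of the lipase, 6 were tested and 0 passed either threshold. Among them Lmf1, the maturation factor of the lipase in the endoplasmic reticulum, had the smallest p (log2 difference -0.13, adjusted p = 0.33, edgeR).

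Kit and Cd93 spread the most among the general capillary genes and did not separate the genotypes. Kit, on chromosome 5 (ENSMUSG00000005672, GRCm38 75574916 to 75656722, plus strand), had 121, 154, 144, 144 and 154 CPM in KO replicates 1 to 5 and 124, 119, 159.6, 173 and 110.3 CPM in WT replicates 1 to 5. Cd93, on chromosome 2 (ENSMUSG00000027435, GRCm38 148436640 to 148443563, minus strand), had 343, 455, 394, 427 and 462 CPM in KO and 303, 362, 462, 462 and 352 CPM in WT mice. For Kit the WT group held both the highest and the lowest mouse, and all KO values lay inside the WT range. The log2 differences were 0.04 (SE 0.13, 95% interval -0.25 to 0.33) for Kit and 0.09 (SE 0.13, 95% interval -0.21 to 0.39) for Cd93, and neither passed (adjusted p = 0.907 and 0.775, edgeR).

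Marker genes of mast cells and melanocytes, which also transcribe Kit, were at low levels. The part of these cells in the Kit level was not tested. The 6 mast cell genes summed to 2.82 to 5.93 CPM in WT and 3.82 to 5.25 CPM in KO mice, with 4 of the 6 at a mean under 1 CPM and none at 0 in all mice. The 5 melanocyte genes summed to 3.33 to 4.99 CPM in WT and 3.20 to 4.10 CPM in KO mice, with 3 of the 5 under 1 CPM and 1 at 0 in all mice. Of the partners of these receptors, Kitl, the Kit ligand, was at 158 ± 25.6 CPM in WT and 186 ± 19.9 CPM in KO mice (log2 difference 0.25, SE 0.11, adjusted p = 0.272, edgeR). Mmrn2, the matrix ligand of Cd93, was at 40.7 ± 5.31 and 46.1 ± 4.32 CPM (0.17, SE 0.09). Cbl, an adaptor and ubiquitin ligase that acts on activated Kit, was at 65.6 ± 10.5 and 80.4 ± 6.18 CPM (0.33, SE 0.10), with an adjusted p of 0.168 by edgeR and 0.0496 by DESeq2. The list of 4 also holds Lnpep, whose link to Kit or Cd93 was not examined. All 4 had differences above 0, 2 of them at an unadjusted p under 0.05, and 0 passed with edgeR. Over all tested genes 49.3% were above 0 and 8.92% were higher at that threshold. Cbl (12345 exon bases) and Lnpep (14144), 2 of the 4, are among the genes beyond 8000 exon bases, whose median difference was 0.11. Over the 19 alternative fits Cbl was at 0.21 to 0.39.

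Plvap, Tbx2 and Fibin gave small differences, each with an interval that holds 0. Plvap, on chromosome 8 (ENSMUSG00000034845, GRCm38 71497765 to 71511752, minus strand), was at 534 ± 54.8 CPM in knockouts and 531 ± 38.0 CPM in WT animals, with a log2 difference of -0.01 (SE 0.07, 95% interval -0.17 to 0.15) that changed sign in some alternatives. Its KO mice ran from 483 to 620 CPM and its WT mice from 494 to 587 CPM, so the WT range lay inside the KO range. Plvap overlaps Gtpbp3 on the opposite strand without shared exons, and it was the only member that overlaps another gene. Tbx2, on chromosome 11 (ENSMUSG00000000093, GRCm38 85832551 to 85841948, plus strand), ran from 380 to 500 CPM in knockout and 402 to 494 CPM in WT animals, with a log2 difference of -0.06 (SE 0.08, 95% interval -0.22 to 0.10). Fibin, on chromosome 2 (ENSMUSG00000074971, GRCm38 110360917 to 110363183, minus strand), ran from 61.7 to 72.9 CPM in knockout and 59.2 to 83.8 CPM in WT animals, with a log2 difference of -0.08 (SE 0.08, 95% interval -0.25 to 0.08) that was -0.16 without WT replicate 1 and -0.02 without WT replicate 4.

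**Figure D2:**
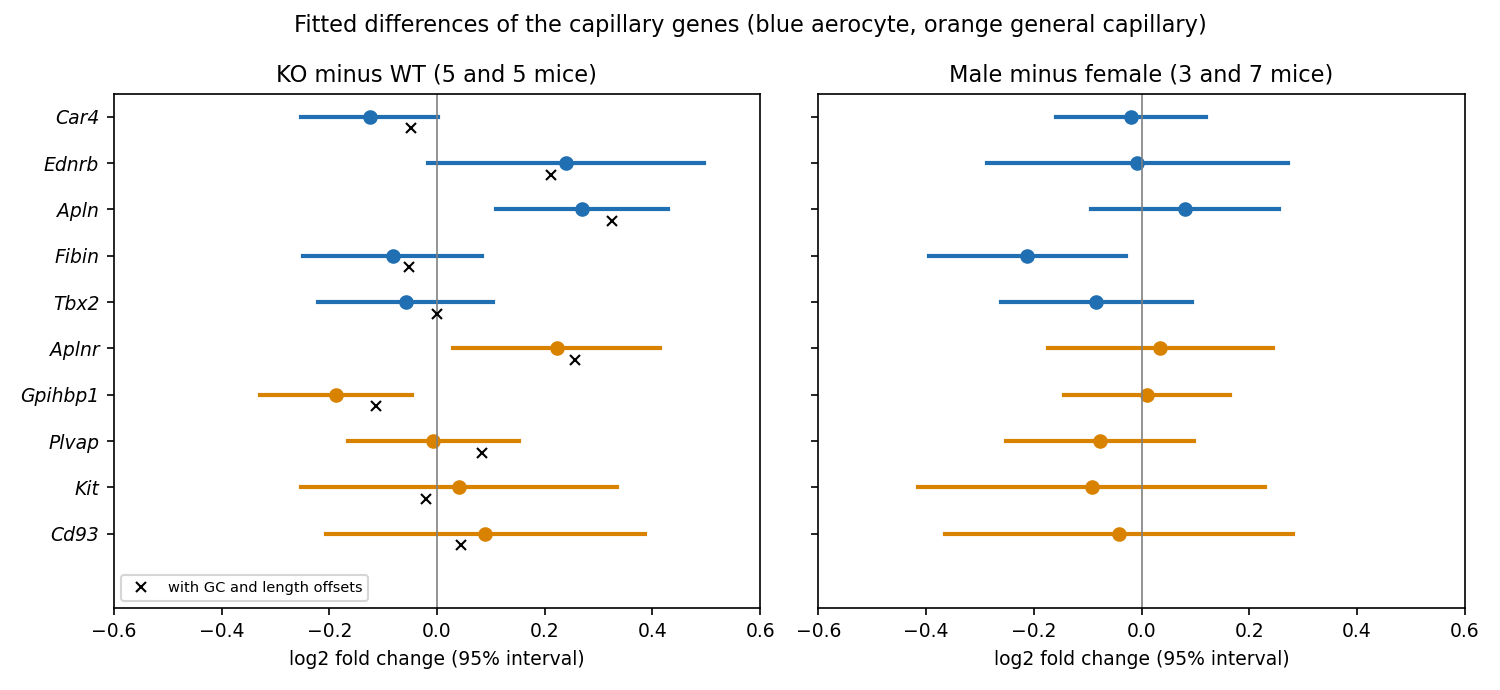
Fitted log2 fold changes of the members with 95% intervals, KO minus WT on the left and male minus female on the right, with aerocyte genes in blue, general capillary genes in orange and crosses for the KO minus WT fit with GC and length offsets. The intervals for Apln, Aplnr and Gpihbp1 on the left and for Fibin on the right lie to one side of 0, and none of these passed after adjustment over 18024 genes.

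Each capillary class therefore held members on both sides of 0. Among the aerocyte genes 2 of 5 had differences above 0 (Ednrb and Apln), with a median of -0.06 and a mean of 0.05, which differ in sign. Among the general capillary genes 3 of 5 were above 0 (Aplnr, Kit and Cd93), with a median of 0.04 and a mean of 0.03. The median over all genes tested was -0.0027. Without KO replicate 5 the directions of the 10 members were the same except for Plvap, which moved from -0.01 to 0.03. In that fit Fibin was at -0.08, Tbx2 at -0.06, Kit at 0.02 and Cd93 at 0.06.

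Levels were also averaged per class in each mouse. The mean log2 CPM of the 5 aerocyte genes was 6.79 ± 0.10 in WT and 6.85 ± 0.04 in KO mice (SD, n = 5 each), and that of the 5 general capillary genes 7.48 ± 0.15 and 7.52 ± 0.10. The aerocyte mean minus the general capillary mean ran from -0.78 to -0.53 in WT and from -0.72 to -0.53 in KO mice, with group means of -0.69 ± 0.10 and -0.67 ± 0.08. The KO range thus lay inside the WT range. The KO minus WT difference of these group means was 0.0176, and it was 0.248 when the median of the 5 genes replaced their mean. No p is given for these averages, because the members were chosen with results known. WT mice were spread over the whole plane of the 2 class means: WT replicate 4 was high in both, WT replicates 1 and 2 were the lowest in the aerocyte genes, and WT replicate 5 was lowest in the general capillary genes. Levels of pan-endothelial genes averaged 7.71 ± 0.10 in WT and 7.70 ± 0.05 in KO mice.

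**Figure D3:**
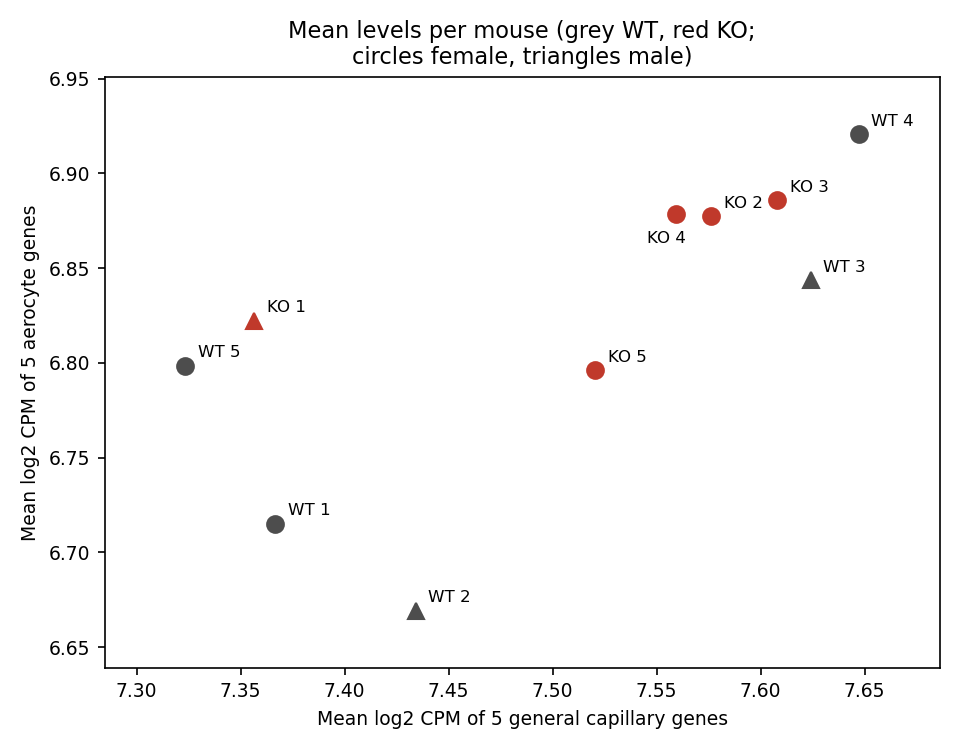
Mean log2 CPM of the 5 aerocyte genes against that of the 5 general capillary genes in each mouse, grey for WT and red for KO, circles for females and triangles for males. KO replicates 2 to 5 sit close together at general capillary means of 7.52 to 7.61, and KO replicate 1 lies apart from them at 7.36.

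Markers outside the 10 members were read from the same fit, and none passed in the KO comparison. Of 11 further aerocyte genes, all tested, 1 (Kitl) was higher and 1 (Cdkn2b) lower at an unadjusted p under 0.05, with a median log2 difference of 0.00. The growth factor receptor gene Kdr was at 0.17 and the cell cycle inhibitor gene Cdkn2b at -0.22 in log2 difference (adjusted p = 0.346 and 0.145, edgeR). Of 8 further general capillary genes, 1 (Ptprb) was higher and 1 (Hilpda) lower at an unadjusted p under 0.05, with a median of 0.05. Hilpda, a lipid droplet protein gene induced by hypoxia, was at 62.8 ± 2.25 CPM in WT and 53.2 ± 4.33 CPM in KO mice (log2 difference -0.25, SE 0.06, adjusted p = 0.121 by edgeR and 0.0188 by DESeq2). Ptprb, an endothelial phosphatase gene, was at 620.3 ± 109 and 755 ± 54.1 CPM (0.28, SE 0.11, adjusted p = 0.24, edgeR). Ptprb has 13333 exon bases, and all tested genes beyond 8000 had a median difference of 0.11. The third gene named from that list by its p, Atp13a3, had a log2 difference that turned from above 0 to -0.0091 with the offsets described below for length.

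Genes of other vessels and neighbouring cells were examined in the same way, beside 49.3% of all tested genes above 0 and 8.92% higher and 8.04% lower at an unadjusted p under 0.05. For 10 genes of endothelial growth factor signalling 9 differences were above 0, with a median of 0.05 and 0 calls at either threshold. Among these Kdr (9030 exon bases), Flt1 (13504), Nrp1 (9785) and Nrp2 (11842) are beyond 8000 exon bases, where the median of all genes was 0.11. The 16 pan-endothelial genes had a median of -0.04, with 7 above 0, and S1pr1, a sphingosine phosphate receptor gene, had an unadjusted p under 0.05 (log2 difference 0.19, adjusted p = 0.246, edgeR). Artery genes had a median of 0.15 and vein genes of 0.02, and Gja4, the arterial connexin gene, was at 62.4 ± 8.97 CPM in WT and 51.5 ± 5.56 CPM in KO mice (-0.30, SE 0.09, adjusted p = 0.17, edgeR). All 6 lymphatic genes were above 0, with a median of 0.11, and 2 had an unadjusted p under 0.05, Prox1, the lymphatic transcription factor gene, at 0.32 and Reln, which encodes the matrix protein reelin, at 0.30. Prox1 (8390 exon bases) and Reln (23738) are also beyond 8000 exon bases, where the median of all genes was 0.11. Over the 19 alternative fits, which include the length offsets described below, Prox1 was at 0.24 to 0.35. The part of length in these differences was not tested. Pericyte genes had a median of 0.11, fibroblast genes of 0.08, smooth muscle genes of -0.09, alveolar type 1 genes of -0.07 and type 2 genes of -0.09. Of the 6 type 2 genes 3 were lower at an unadjusted p under 0.05, among them Etv5 (-0.15) and the surfactant protein gene Sftpb (-0.17). The part of these cells' RNA in the members' differences was not tested.

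Fold changes of all genes moved with exon length in the KO comparison, and the members span that scale. The median log2 difference was -0.08 over 1684 genes with up to 1000 exon bases and over 2422 genes of 1000 to 2000 bases, the bin of Car4 and Plvap. It was -0.05 for 2000 to 3000 bases (Fibin and Gpihbp1), -0.03 for 3000 to 4000 bases (Apln, Tbx2 and Aplnr) and 0.01 for 4000 to 6000 bases (Ednrb). In the longest bins it was 0.04 (Cd93) and 0.11 over 2618 genes beyond 8000 bases (Kit). With offsets that level this trend and that of GC content, an alternative chosen after seeing the data, Apln was at 0.32 and Aplnr at 0.26, and Gpihbp1 was at -0.11 and Car4 at -0.05 (adjusted p = 0.125, 0.254, 0.373 and 0.735, edgeR). Kit turned from above 0 to -0.02 and Plvap from below 0 to 0.08. The members at an unadjusted p under 0.05 then numbered 2. Medians over all genes also differed by length in the sex comparison described below (male minus female). They were -0.02 up to 1000 exon bases, -0.05 for 1000 to 2000 and 0.04 beyond 8000.

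**Figure D4:**
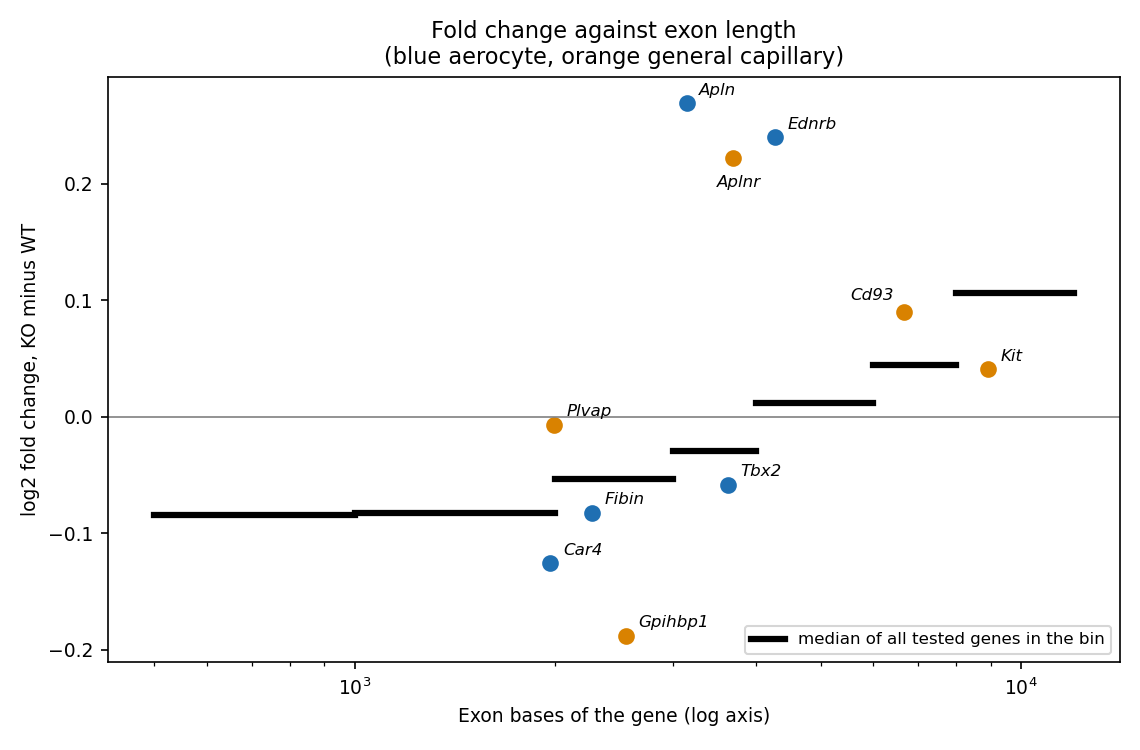
Log2 fold change, KO minus WT, of the 10 members against exon bases on a log axis, with black bars for the median of all tested genes in each length bin. Apln, Ednrb and Aplnr lie 0.2 or more above the bar of their bin, Gpihbp1 lies more than 0.1 below its bar, and Car4 and Fibin lie near theirs.

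The second comparison set the 3 males against the 7 mice labelled female, which include KO replicate 5, in the same fit. None of the members passed by edgeR, against 0.583% of all tested genes (0.449% higher and 0.133% lower in males). At an unadjusted p under 0.05 there was 1 member, lower in males, against 15.1% of all genes (7.34% higher and 7.79% lower). Fitted differences were above 0 for 3 of the 10 members, against 48.3% of all genes. DESeq2 and limma-voom each gave 0 adjusted calls and 1 unadjusted call. The ranges of the sexes overlapped for every member, where they did not for 4.81% of all genes. That 1 member was Fibin, which was at 61.7, 59.2 and 68.8 CPM in KO replicate 1 and WT replicates 2 and 3, the males, and at a lowest of 61.5, a median of 70.8 and a highest of 83.8 CPM in the females. The males lay in the lower part of the female range or below it. The fitted log2 difference, male minus female, was -0.21 (SE 0.09, 95% interval -0.39 to -0.03, adjusted p = 0.267, edgeR quasi-likelihood test). Apln, on the X chromosome, differed by 0.08 (adjusted p = 0.687, edgeR). The other 8 members had differences from -0.09 (Kit) to 0.03 (Aplnr). Medians were -0.02 for the aerocyte and -0.04 for the general capillary genes, beside -0.01 for all genes tested. Among the further lists 1 gene passed, the alveolar type 1 gene Rtkn2, which was higher in males by 0.33 (SE 0.06, adjusted p = 0.0197, edgeR). Without KO replicate 5, 0 members passed in the sex comparison and 1 had an unadjusted p under 0.05 (edgeR).

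How the members varied with each other was examined over the 10 mice, with Pearson's r and Spearman's rho of log2 CPM for all 45 pairs. These points share the mice, library scaling and genotype, and p-values come from 100000 permutations adjusted over the 45 pairs. The median r was 0.31, from -0.73 to 0.87, with 31 pairs above 0. It was 0.09 over the 10 aerocyte pairs, 0.40 over the 10 general capillary pairs and 0.35 over the 25 pairs with 1 gene of each class. No pair passed at an adjusted p under 0.05, and 6 had an unadjusted permutation p under 0.05. The difference between these medians was not tested.

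Kit and Cd93 were the most alike pair, with r = 0.873 (permutation p = 0.00196, adjusted 0.0882) and rho = 0.867 (permutation p = 0.00227, adjusted 0.088). Without the 2 mice farthest from the Kit median r was 0.914, in the 7 females 0.836, and with each genotype centred on its own mean 0.868. Kit (8911) and Cd93 (6677) have the most exon bases of the members, and the correlations used levels without the length offsets. The part of length in this pair was not tested. Apln and Aplnr followed with r = 0.766 (permutation p = 0.0106, adjusted 0.168) and rho = 0.782 (permutation p = 0.0104, adjusted 0.157). That relation was 0.624 without the 2 farthest mice, 0.852 in females and 0.583 with genotypes centred. Within 1 genotype there were 5 mice and within males 3, too few for a value of their own.

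Car4 and Apln, both chosen as aerocyte markers, ran in opposite directions over the mice. The part of other cells in the Car4 level was not tested. Their r was -0.733 (permutation p = 0.0149, adjusted 0.168) and their rho -0.842 (permutation p = 0.00391, adjusted 0.088). It was -0.872 without the 2 farthest mice, -0.752 in females and -0.524 with genotypes centred. Tbx2 and Plvap had r = 0.745 and rho = 0.491 (permutation p = 0.0137 and 0.154, adjusted 0.168 and 0.617). Their r was 0.551 without the 2 farthest mice, 0.781 in females and 0.763 with genotypes centred. Ednrb with Gpihbp1 had r = -0.681 and rho = -0.515 (permutation p = 0.0322 and 0.133, adjusted 0.29 and 0.617). Car4 with Gpihbp1 had r = 0.63 and rho = 0.479 (permutation p = 0.0491 and 0.166, adjusted 0.352 and 0.617). Without the 2 mice farthest from the median of the first gene, r was nearer 0 in both pairs, at -0.144 and 0.238. In females r was -0.522 and 0.683, and with genotypes centred -0.478 and 0.350.

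**Figure D5:**
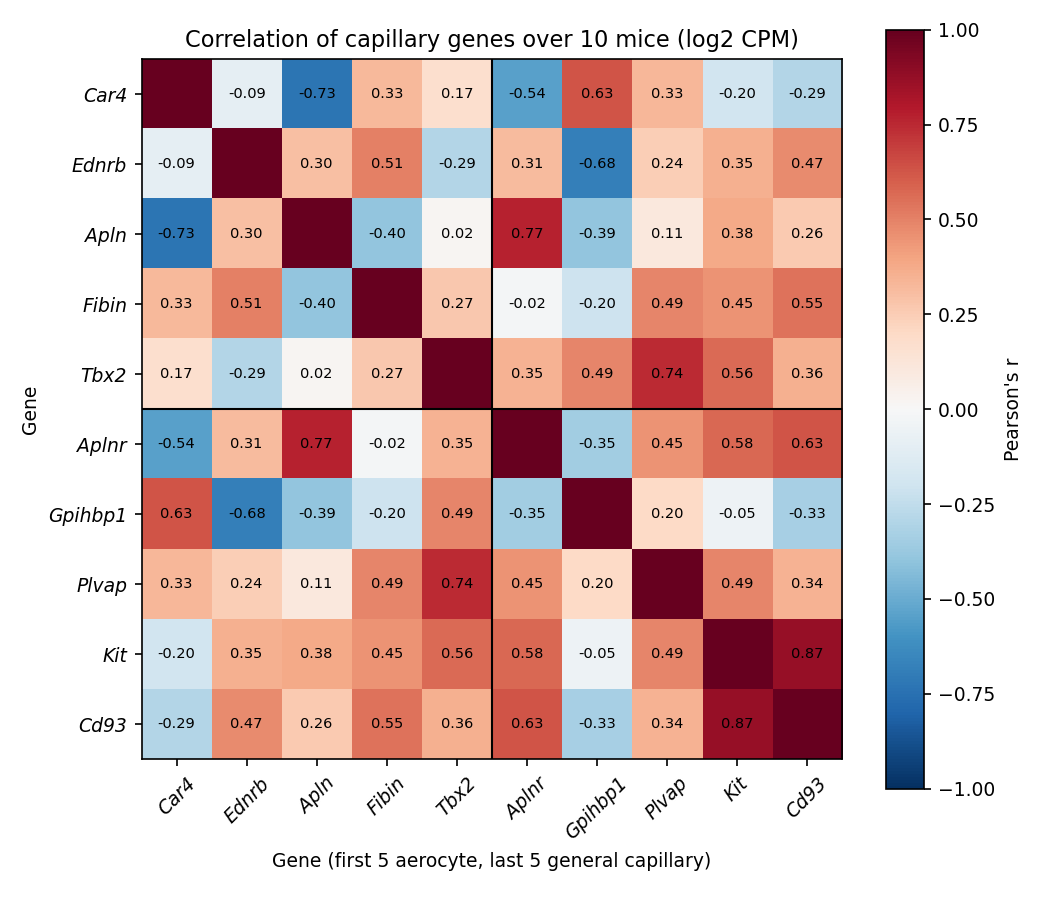
Pearson's r of log2 CPM over 10 mice for each pair of members, red for positive and blue for negative values, with black lines between the 5 aerocyte and the 5 general capillary genes. Kit with Cd93 (0.87) and Apln with Aplnr (0.77) are the deepest red off the diagonal, and Car4 with Apln (-0.73) is the deepest blue.

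No single mouse was the highest or the lowest for all members. KO replicate 3 was the highest mouse for 4 members (Apln, Tbx2, Aplnr and Plvap) and WT replicate 4 for 4 others (Car4, Fibin, Kit and Cd93). KO replicate 5 and WT replicate 5 were each the lowest for 3 members. WT replicate 4 lay above the median of the mice for 8 of 10 members, and KO replicate 1 and WT replicate 1 for 2 each. The coefficient of variation over mice ran from 7.19% for Car4 to 15.2% for Ednrb.

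Across all 12874 genes with a mean of at least 5 CPM, the genes most like Car4 over the 10 mice did not include a member. They were Chil3, a chitinase-like protein gene of alveolar macrophages (r = 0.956), Itm2b, a membrane protein gene (r = 0.940), Cdo1, a cysteine dioxygenase gene (r = 0.937), Rnase4, a secreted ribonuclease gene (r = 0.925), and Gcfc2 (r = 0.919). Gpihbp1 was ranked 651 among the 12874 genes. The other aerocyte members were ranked 3456 (Fibin), 5118 (Tbx2), 7819 (Ednrb) and 12736 (Apln). The part of alveolar macrophage RNA in the Car4 level was not tested. For Gpihbp1 the most alike genes were Rpl37rt (r = 0.947), Gm10250 (r = 0.938), Rpl36a-ps2 (r = 0.930), Pef1 (r = 0.929) and Rpl10-ps3 (r = 0.926). The ribosomal rows among these have near-identical copies that share reads, so their values are uncertain. Car4 was ranked 1471 for Gpihbp1. These correlations describe the 10 libraries and carry no p.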

How the data were processed

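RNA of the right middle lung lobe was sequenced as single reads of 50 bases from stranded mRNA libraries, per the labels' protocols. The authors deposited estimated counts per gene, not scaled between samples, for 47333 Ensembl gene identifiers. Of the values above 0, 30.1% were not whole within 0.01. The submitters' processing notes name FastQC, MultiQC, STAR 2.6.0, Salmon 0.9.1 and the builds mm10 and GRCm38. Their settings, gene annotation, filters and use of strand are not given in the sources used here. Gene symbols, positions and exon lengths are those of GENCODE M21 (GRCm38), which matched 47281 identifiers.

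Estimated counts were rounded and compared with edgeR 4.0.16 (R 4.3.3) by its robust quasi-likelihood test, two-sided, on all 10 mice with genotype and sex as terms and TMM scaling. Genes were kept by filterByExpr (minimum count 10, total 15), and p-values were Benjamini-Hochberg adjusted over the 18024 genes tested, with a threshold of 0.05. SE is the absolute log2 fold change over the square root of F. CPM are per 1e+06 TMM-scaled counts, as mean ± SD over mice, and log2 CPM used a prior count of 2. Depth was 21357424 to 28321294 counts per mouse. A count of 3, the floor for detection, equalled 0.106 to 0.14 CPM and covers counting error only. The script was tested on simulated data.

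The members and gene lists were chosen with earlier results of these data known. Named are all members, their direct ligands and partners, per list every gene that passed or up to 3 with the smallest p in the KO comparison, and the 5 genes most like Car4 and Gpihbp1. Alternatives were DESeq2 1.42.0 size factors and Wald test, limma-voom 3.58.1, other filters, no covariate, no robust option, females alone, a threshold of 0.1, each mouse left out and, added after seeing the data, offsets for GC content and length (lowess span 0.3) on 18011 genes. Each mouse is a separate animal, replicate numbers follow sample order, and 0 columns of the table lacked a sample. Promoter windows came from a RefSeq table, as entries matched by symbol.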

Additional observations from a re-analysis of the deposited data

Results flagged for a closer look

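Among 36 sets of 5 or 7 values examined for a mouse far from the others, 1 stood out, where chance gives about 1 in 20, or 1.8. In the KO group the mean log2 CPM of the aerocyte genes minus that of the general capillary genes was -0.534 in KO replicate 1. The nearest KO mouse was at -0.681 and the other end of the group at -0.724, so that the gap was 0.772 of the range, above the critical value of 0.71. KO replicate 1 is the male of its group, and among the KO mice it was the lowest for the general capillary genes Aplnr, Kit and Cd93 and for the aerocyte genes Fibin and Tbx2. Without it the KO minus WT log2 difference was 0.37 for Aplnr and 0.22 for Cd93, as in females alone. With no KO male left and sex as a term, the WT males no longer enter that difference. The change is therefore not that of KO replicate 1 by itself. WT replicate 5, a female, had a similar class difference of -0.525. The part of sex in this value was not tested, because the group holds 1 male.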

How the results depend on the processing

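The count of members past the adjusted threshold was 0 in all 20 alternatives of the KO comparison and all 19 of the sex comparison, and also with each mouse left out. The number of all genes passing in the KO comparison (4 as reported) was 50 without a filter, 346 by DESeq2, 2 by limma-voom, 57 at a threshold of 0.1, 15 with the offsets and 2 to 18 with 1 mouse left out (18 without WT replicate 3). In the sex comparison (105 as reported) it was 197 without a filter, 41 without genotype as a term, 436 by DESeq2, 351 at a threshold of 0.1, 217 with the offsets, and 0 (without KO replicate 1) to 195 (without WT replicate 4) with 1 mouse left out. At an unadjusted p under 0.05, 1919 genes were counted without KO replicate 1 by edgeR. The KO minus WT difference of the class difference, 0.0176 from means, was 0.248 from medians of the 5 genes and -0.0169 to 0.0587 with 1 mouse left out. Apln, Aplnr, Ednrb, Gpihbp1, Car4 and Fibin kept their direction in all 19 alternatives of the KO comparison. Signs turned for Tbx2 (0.0046 in females alone, -0.114 to 0.005 with 1 mouse left out), Plvap (0.0095 without sex as a term, 0.0182 in females alone, 0.0837 with the offsets, -0.0574 to 0.0346), Kit (-0.0207 with the offsets, -0.0651 to 0.166), Cd93 (-0.024 to 0.222), Lpl (-0.119 in females alone, -0.0985 with the offsets, -0.118 to 0.136) and Atp13a3 (-0.0091 with the offsets). In the sex comparison they turned for Car4 (0.0061 without genotype, 0.0181 with the offsets, -0.089 to 0.0142), Aplnr (-0.0344 without genotype, -0.0802 to 0.239), Ednrb (-0.127 to 0.127), Tbx2 (-0.131 to 0.0057), Gpihbp1 (-0.0386 to 0.0521), Kit (-0.246 to 0.0387) and Cd93 (-0.193 to 0.144). Bpifb1 missed the threshold by limma-voom (adjusted p = 0.0523), in females alone (0.104, edgeR) and in 7 of the fits with 1 mouse left out, while its log2 difference stayed between -6.97 and -6.35. Rtkn2 missed it without genotype as a term (adjusted p = 0.0551, edgeR) and without KO replicate 1, KO replicate 2 or WT replicate 2. The fit without KO replicate 1 and that in females alone draw the KO minus WT difference from the same females. The cause of these changes was not tested. No paired analysis was possible because replicate numbers follow sample order and pair no mice.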
